A study of Mus musculus with 12 samples.

Results

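The mitochondrial ribosomal protein genes are the nuclear genes for the protein shell of the ribosome that works inside mitochondria. They were taken by symbol, Mrpl or Mrps followed by a number and at most 1 letter, and 77 of the 14560 genes listed in the deposited table fitted, 48 named Mrpl and 29 named Mrps. Of the 78 genes of the GENCODE M21 annotation with such a symbol, Mrpl53 is not analysed here. By their known place 50 members sit in the large subunit, among them Mrps18a and Mrps30 in spite of their symbols, and 26 in the small subunit. Mrps36 sits in neither and is now known as a component of the ketoglutarate dehydrogenase complex.

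Mitochondria keep a small genome, which encodes core subunits of the respiratory chain and of ATP synthase, and they translate its messages on ribosomes of their own. The rRNAs of these ribosomes come from the mitochondrial genome, while every protein is encoded in the nucleus, made in the cytosol and imported. The large subunit joins amino acids, the small subunit reads the message, and many of the proteins have bacterial counterparts while others are found only in mitochondria. In blood formation, cycling progenitors carry an active translation and respiration machinery, and basophils are granulocytes that leave the marrow as mature cells.

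RNA was sequenced from 4 populations sorted from the bone marrow of C57BL/6 mice, with 3 libraries each and 12 in all. The DN-GMPs were granulocyte-monocyte progenitors gated as c-Kit+, CD34+ and CD16/32+ and as negative for Sca1 and for the lineage markers B220, CD3, Ter119, CD11b and Gr1, with neither CDH1 (E-cadherin) nor FceRIa, a chain of the IgE receptor, at the surface. The Pro-BMPs came from the same gate but were CDH1+ and FceRIa-, and the Pre-BMPs were FceRIa+ and labelled CDH1-. The basophils were gated as CD49b+ and FceRIa+ and as negative for c-Kit, Sca1, B220, CD4, CD8a and Ter119. The design speaks of 3 mice and independent triplicates, but no label ties a library number to a mouse, and p-values therefore weigh a change against how far these libraries scatter, which may in part be technical. No genotype or treatment separated the groups, which the labels set apart by the surface gate. The labels used here give no age.

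Each library held 29762981 to 42502405 reads on the listed genes. A level is written in CPM, the reads of a gene for every 1000000 reads of the authors' scaled library size. The 8 population markers (Cdh1, Fcer1a, Ms4a2, Kit, Cd34, Itga2, Prss34 and Mcpt8) summed to 672 to 869 CPM in DN-GMPs and 947 to 1171 CPM in Pro-BMPs. Their sum was 3696 to 4489 CPM in Pre-BMPs and 32286 to 37870 CPM in basophils. Singly, 6 of them were higher and 2 lower in basophils than in DN-GMPs (limma adjusted p under 0.05). By the same measure 23.2% of all genes were higher and 23.2% lower, which also stands beside the counts of single genes given next. Cdh1 itself averaged 0.0911 CPM in DN-GMPs, 42.8 CPM in Pro-BMPs, 147 CPM in Pre-BMPs, then 1049.6 CPM in basophils (n = 3 each), so its message was present in the Pre-BMPs whose gate is labelled negative for the protein. The 9 neutrophil markers summed to 18751 to 21562 CPM in DN-GMPs, 17475 to 19496 CPM in Pro-BMPs, 5375 to 6557 CPM in Pre-BMPs and 2929 to 4056 CPM in basophils; singly, 5 were lower and 3 higher in basophils than in DN-GMPs. The 6 monocyte markers summed to 1295 to 1573 CPM in DN-GMPs, 90.4 to 126 CPM in Pro-BMPs, 35.2 to 62.5 CPM in Pre-BMPs and 412 to 559 CPM in basophils, with 4 lower and 1 higher in basophils than in DN-GMPs. The 13 proliferation genes summed to 3085 to 3719 CPM in basophils, against 4327 to 4572 CPM in DN-GMPs, with 8 lower and 2 higher. The other lists also moved along the series: 3 lymphoid genes held 482 to 608 CPM in basophils, against 688 to 826 CPM in DN-GMPs, 6 erythroid genes peaked at 176 to 243 CPM in Pre-BMPs (12.1 to 15.3 CPM in basophils and 2.08 to 3.71 CPM in DN-GMPs), and 2 mast cell genes peaked at 82.7 to 289 CPM in Pre-BMPs (0.0463 to 1.61 CPM in basophils). Singly, 1 of the lymphoid genes was lower and 1 higher in basophils than in DN-GMPs. The part of these cell types and of proliferation in the changes described here was not tested.

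Promoters are shown for 6 members that stand for the patterns described here: the largest fall (Mrps6), a fall at the last step (Mrps5), a fall at both later steps (Mrpl12), a peak in Pre-BMPs (Mrpl52), 1 side of a shared start region (Mrps11) and a level that stayed within a narrow range (Mrps21). Each runs 5′ to 3′ on the gene's strand from 250 bases before the RefSeq start to 30 bases after it, on GRCm38.p6. Capitals mark matches, on either strand, to 3 motifs that are known from the promoters of nuclear genes for mitochondrial proteins: GCGC, any base and then TGCGC for NRF1, CCGGAAG for ETS factors such as GABP, and AAGATGGC for YY1. The Mrps6 window lies at chr16:92058086-92058365 (plus strand), Mrps5 at chr2:127587176-127587455 (plus), Mrpl12 at chr11:120484387-120484666 (plus), Mrpl52 at chr14:54426659-54426938 (plus), Mrps11 at chr7:78782881-78783160 (plus) and Mrps21 at chr3:95871485-95871764 (minus).
Mrps6: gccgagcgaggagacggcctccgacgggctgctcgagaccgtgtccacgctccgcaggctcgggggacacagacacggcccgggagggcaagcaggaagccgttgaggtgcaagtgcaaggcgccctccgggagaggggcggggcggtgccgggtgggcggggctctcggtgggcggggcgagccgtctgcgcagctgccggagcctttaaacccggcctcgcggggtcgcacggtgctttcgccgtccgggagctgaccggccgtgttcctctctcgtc
Mrps5: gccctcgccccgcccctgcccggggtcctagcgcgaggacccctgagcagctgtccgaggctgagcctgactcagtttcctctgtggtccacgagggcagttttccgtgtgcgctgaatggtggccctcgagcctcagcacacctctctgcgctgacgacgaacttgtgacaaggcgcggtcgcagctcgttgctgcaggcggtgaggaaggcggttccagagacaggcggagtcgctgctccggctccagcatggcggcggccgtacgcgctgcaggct
Mrpl12: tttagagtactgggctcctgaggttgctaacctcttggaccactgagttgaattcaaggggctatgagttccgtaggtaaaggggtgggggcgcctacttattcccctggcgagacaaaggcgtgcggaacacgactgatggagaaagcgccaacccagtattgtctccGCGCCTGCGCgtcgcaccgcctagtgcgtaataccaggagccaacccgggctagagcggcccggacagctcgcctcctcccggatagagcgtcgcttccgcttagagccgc
Mrpl52: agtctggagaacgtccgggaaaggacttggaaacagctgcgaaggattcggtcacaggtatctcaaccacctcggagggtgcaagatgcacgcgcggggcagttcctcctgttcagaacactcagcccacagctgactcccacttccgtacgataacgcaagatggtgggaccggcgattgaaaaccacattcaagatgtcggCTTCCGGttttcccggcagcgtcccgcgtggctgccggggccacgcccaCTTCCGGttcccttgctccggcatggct
Mrps11: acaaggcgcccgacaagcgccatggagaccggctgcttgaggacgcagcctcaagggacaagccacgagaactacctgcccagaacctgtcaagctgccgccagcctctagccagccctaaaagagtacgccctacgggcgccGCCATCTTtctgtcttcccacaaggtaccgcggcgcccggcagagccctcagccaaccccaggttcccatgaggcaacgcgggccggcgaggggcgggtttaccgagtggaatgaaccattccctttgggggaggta
Mrps21: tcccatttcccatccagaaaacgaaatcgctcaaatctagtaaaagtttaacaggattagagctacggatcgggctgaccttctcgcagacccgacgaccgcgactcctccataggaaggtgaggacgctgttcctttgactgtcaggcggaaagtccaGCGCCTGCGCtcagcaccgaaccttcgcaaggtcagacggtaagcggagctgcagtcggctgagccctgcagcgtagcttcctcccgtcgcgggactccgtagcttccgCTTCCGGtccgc

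RefSeq windows from 250 bases before to 50 after the start were found for 68 of the 77 members, 74 windows in all. The NRF1 motif was in 17.6% of these windows, in 10.1% of the 12077 windows of listed protein-coding genes and in 4.60% of all 32851 windows. The ETS motif was in 33.8%, 17.9% and 8.86% of the same sets, and the YY1 motif in 16.2%, 4.55% and 2.75%. The E-box CACGTG, the site of Myc and its relatives, was in 9.46%, 9.90% and 7.15%, and the GC box GGGCGG in 52.7%, 61.6% and 35.7%. The shares for NRF1, ETS and YY1 were higher in the members' windows than in those of listed genes, and the shares for the E-box and the GC box were not; these differences were not tested. Among the windows shown, Mrps6 and Mrps5 held none of the 3 marked motifs. Mrpl12 held 1 NRF1 match, Mrpl52 held 2 ETS matches, Mrps11 held 1 YY1 match, and Mrps21 held 1 match each for NRF1 and ETS. A match describes these letters only, and binding of any factor was not measured.

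Most mitochondrial ribosomal protein genes were lowest in basophils. The summed level of the 77 members was 6196, 5144 and 5875 CPM in the DN-GMP libraries, 5187, 5708 and 5012 CPM in Pro-BMPs, 4348, 4313 and 3666 CPM in Pre-BMPs, and 2934, 2993 and 3133 CPM in basophils. The DN-GMP and Pro-BMP libraries overlapped, every Pre-BMP library lay below all of them, and every basophil library lay below every Pre-BMP library. In bulk samples, fewer cells of a type and less RNA per cell cannot be told apart. Over the 77 members, 60 differed among the 4 populations (limma moderated F-test, adjusted p under 0.05), beside 46.8% of all genes.

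**Figure D1:**
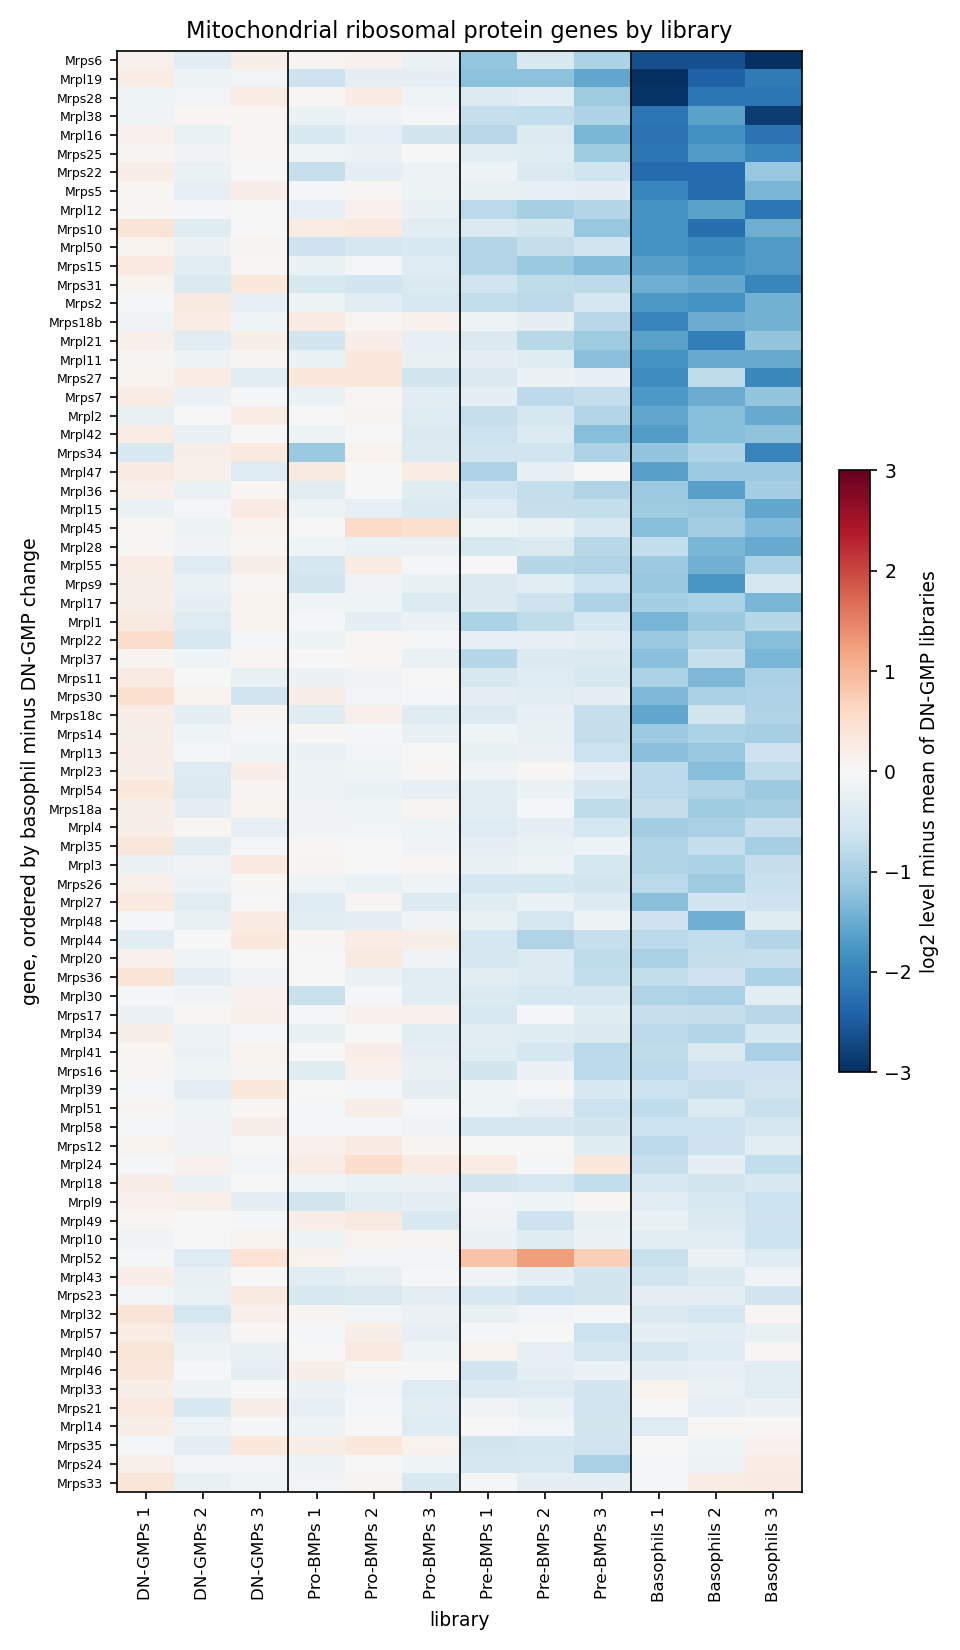
Log2 level of each of the 77 genes in each of the 12 libraries, minus the mean of the gene's 3 DN-GMP libraries; colours run from -3 (blue) to 3 (red), and genes are ordered by their basophil minus DN-GMP change, from Mrps6 at the top (-2.79) to Mrps33 at the bottom (0.13). The basophil columns are blue for most genes, and 63 of the 77 genes were called lower in basophils than in DN-GMPs, beside 23.2% of all genes.

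The population mean was highest in DN-GMPs for 56 members, in Pro-BMPs for 18, in Pre-BMPs for 1 (Mrpl52) and in basophils for 2. It was lowest in basophils for 68 members and in Pre-BMPs for 9. Of all genes, 27.3% had their highest mean in DN-GMPs and 34.9% in basophils, while 39.0% had their lowest in basophils and 15.9% in Pre-BMPs. In 50 members (64.9%) the mean log2 level was lower at each of the 3 steps, which held for 15.1% of all genes. The members differed in how large the fall was: the range between population means ran from 0.21 on the log2 scale in Mrpl14 to 2.79 in Mrps6.

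By level, Mrps34, Mrps6 and Mrpl47 had the lowest mean log2 CPM (3.71, 3.91 and 4.10), and Mrps14, Mrpl42 and Mrpl18 the highest (6.80, 6.78 and 6.75). No member fell below 143 reads in any library, and the filter of at least 10 reads in at least 3 libraries removed none. Per kilobase of annotated exon, the mean level ran from 4.22 CPM per kb in Mrpl47 through a median member, Mrps2, at 21.2 to 109 in Mrpl34. The lengths are unions of all annotated exons, so a gene with a long rare transcript gets a low value on that scale.

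In the first step, Pro-BMPs against DN-GMPs, no member was called by limma, beside 2.53% of all genes. The log2 changes of the 77 members ran from -0.53 to 0.35 with a median of -0.11, and the median of all genes was 0.02. At an unadjusted p under 0.05 there were 3 members, all lower, where 13.9% of all genes stood, and the other limma settings gave 2 to 7 such members and 0 calls each. Mrpl50, a large subunit protein found only in mitochondria, came closest, with 45.7, 49.1 and 50.6 CPM in Pro-BMPs, against 75.1, 61.7 and 73.9 CPM in DN-GMPs. Every Pro-BMP library lay below every DN-GMP library, and the log2 change was -0.53 (SE 0.148, limma adjusted p = 0.107); it was picked out after its values were seen.

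In the second step, Pre-BMPs against Pro-BMPs, 9 members fell and 1 rose, beside 4.69% and 4.8% of all genes that were called lower and higher. The median log2 change of the members was -0.33, and that of all genes was 0.02. The largest falls among the called members were of Mrpl19, Mrps15, Mrpl44, Mrpl12 and Mrps35, and the member that rose was Mrpl52. Mrps15 and Mrpl44 alone were called whichever of the 12 libraries was left out.

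Mrps15, a small subunit protein whose bacterial counterpart binds rRNA early in assembly, had 74.3, 63.1 and 55.6 CPM in the Pre-BMP libraries, against 119, 129.6 and 105 CPM in Pro-BMPs. The groups did not overlap, and the log2 change was -0.88 (SE 0.171, limma adjusted p = 0.00852), at most 0.0423 without any 1 library. Mrpl44, a mitochondria-specific protein of the large subunit with an RNase III-like fold, had 65.1, 49.99 and 57.4 CPM in Pre-BMPs, against 96.3, 108 and 105 CPM in Pro-BMPs. It also did not overlap, with a log2 change of -0.85 (SE 0.168, limma adjusted p = 0.00894). In basophils Mrpl44 had 54.3, 55.8 and 51.0 CPM, which is within the Pre-BMP range.

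Mrpl19, whose bacterial counterpart lies at the subunit interface, had 39.3, 39.1 and 31.4 CPM in Pre-BMPs, against 60.1, 75.9 and 76.5 CPM in Pro-BMPs, a log2 change of -0.95 (SE 0.264, limma adjusted p = 0.0449). Mrpl12 forms the flexible stalk that meets translation factors, and it has also been described to bind the mitochondrial RNA polymerase. It had 46.0, 39.8 and 43.3 CPM in Pre-BMPs, against 67.6, 86.9 and 68.2 CPM in Pro-BMPs, a log2 change of -0.78 (SE 0.172, limma adjusted p = 0.0161). In both genes every Pre-BMP library lay below every Pro-BMP library.

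Of the other members called lower, Mrpl2 and Mrpl20 changed by -0.60 and -0.60 on the log2 scale and Mrpl18 by -0.43. Mrpl2 is the counterpart of a bacterial protein that lies close to the centre where amino acids are joined. These calls were made at limma adjusted p = 0.0499, 0.0285 and 0.0409. Of the 12 fits that each left out 1 library, the call held in 11 for Mrps35, 9 for Mrpl12, 8 for Mrpl20, 6 for Mrpl52, 3 for Mrpl2, 2 each for Mrpl19 and Mrpl18, and 1 for Mrps24. The count of 10 calls fell to 2 without Pro-BMP replicate 2, 3 without Pre-BMP replicate 3, 4 without Pre-BMP replicate 1 or 2, 5 without Pro-BMP replicate 1, and 6 without Pro-BMP replicate 3 or basophil replicate 2.

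Mrpl52, a large subunit protein found only in mitochondria, went the other way. It had 21.03, 17.0 and 30.03 CPM in DN-GMPs, 23.6, 20.8 and 20.8 CPM in Pro-BMPs, 40.2, 52.7 and 36.3 CPM in Pre-BMPs and 13.8, 19.4 and 16.7 CPM in basophils. All 3 Pre-BMP libraries lay above the other 9 libraries. The log2 change was 0.97 (SE 0.247, limma adjusted p = 0.0307) for Pre-BMPs against Pro-BMPs and -1.36 (SE 0.247, limma adjusted p = 0.00158) for basophils against Pre-BMPs. The rise lost its call without any 1 of Pro-BMP or Pre-BMP replicates 1 to 3, with limma adjusted p up to 0.112, and the later fall kept its call in all 12 such fits. The Mrpl52 promoter printed earlier carries 2 ETS matches, and no annotated exon of another gene overlaps its exons.

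**Figure D2:**
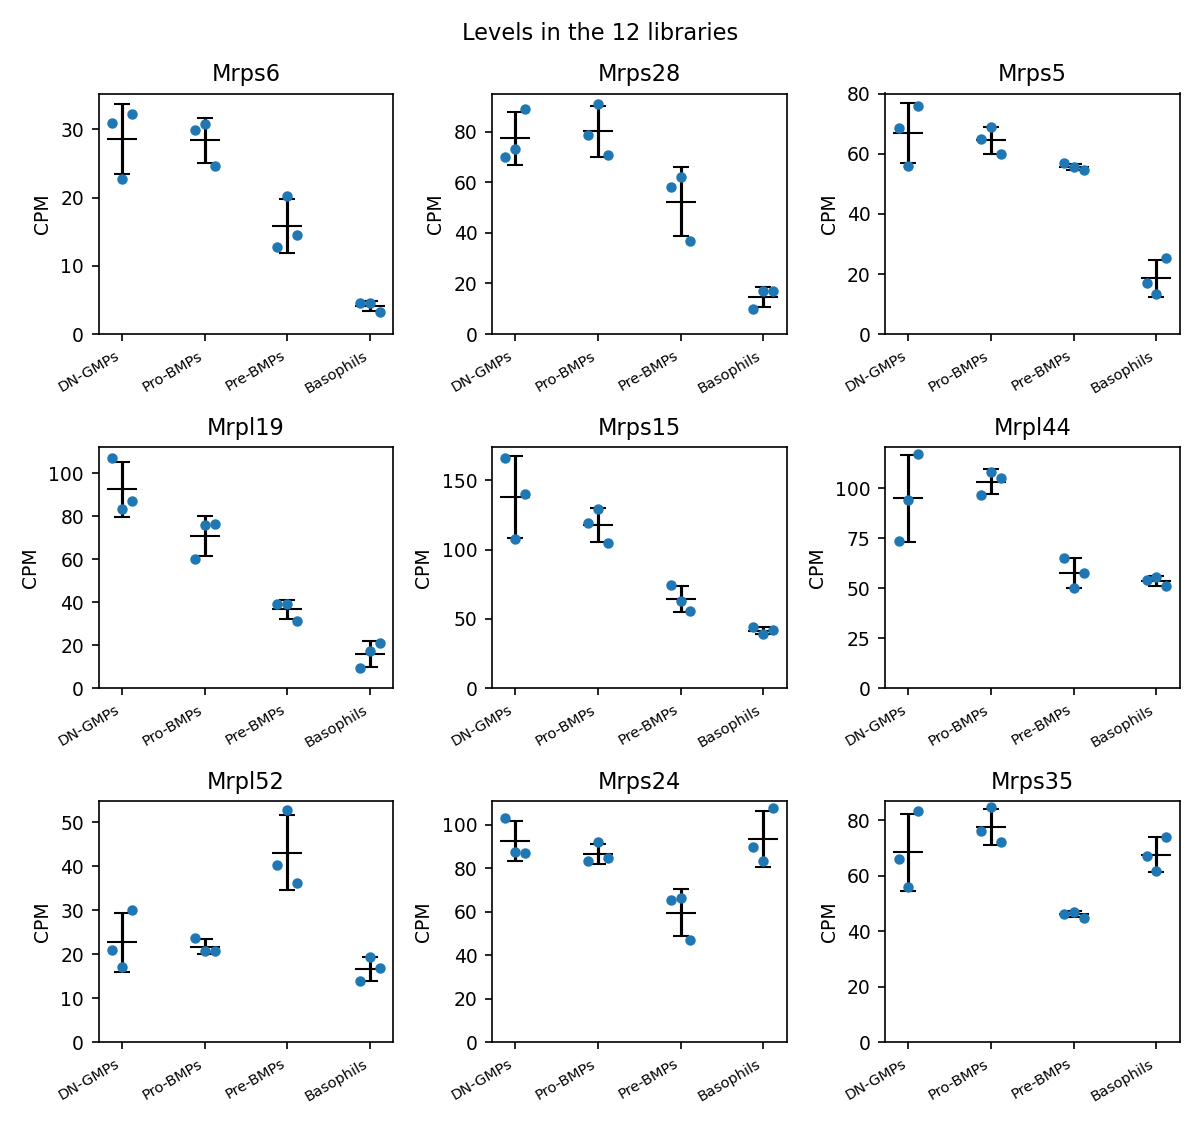
CPM of 9 members in the 12 libraries (points), with the mean and SD of each population (black; n = 3). Mrps6, Mrps28, Mrps5, Mrpl19, Mrps15 and Mrpl44 were lower in basophils than in DN-GMPs, Mrpl52 peaked in Pre-BMPs (36.3 to 52.7 CPM), and Mrps24 and Mrps35 were lowest there.

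In the third step, basophils against Pre-BMPs, 40 members fell and 2 rose, beside 16.5% of all genes called lower and 13.9% called higher. The median log2 change was -0.57 over the members and -0.10 over all genes. Of the 26 small subunit members 16 fell and 2 rose, and of the 50 large subunit members 24 fell. The largest falls among the called members were of Mrps6, Mrps28, Mrps5, Mrps22 and Mrpl38. The Pre-BMP libraries serve in this step and in the one before, so the 2 sets of changes are not independent. The count of 42 calls fell to 26 without Pre-BMP replicate 2, and 22 members were called in all 12 fits that left out a library.

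Mrps6, a small subunit protein with a bacterial counterpart, had 4.51, 4.56 and 3.30 CPM in basophils, against 12.7, 20.2 and 14.6 CPM in Pre-BMPs. The log2 change was -1.93 (SE 0.261, limma adjusted p = 0.000227). Mrps28, related to the bacterial protein that helps to hold the message, had 10.04, 17.0 and 17.1 CPM in basophils, against 58.1, 62.2 and 36.8 CPM in Pre-BMPs, a log2 change of -1.84 (SE 0.254, limma adjusted p = 0.000264). In both genes the highest basophil library lay below the lowest Pre-BMP library.

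Mrps5, whose bacterial counterpart bears on the accuracy of decoding, had 17.0, 13.3 and 25.5 CPM in basophils, against 56.9, 55.6 and 54.6 CPM in Pre-BMPs. The Pre-BMP libraries overlapped the DN-GMP libraries (68.7, 56.0 and 75.8 CPM) and lay just below the Pro-BMP libraries (64.8, 68.9 and 59.9 CPM). The log2 change in the last step was -1.63 (SE 0.217, limma adjusted p = 0.000197). Mrps22, a mitochondria-specific protein whose human gene is linked to inherited mitochondrial disease, had 8.90, 8.88 and 20.1 CPM in basophils, against 40.3, 32.9 and 29.4 CPM in Pre-BMPs. Its basophil replicate 3 stood at more than the level of the other 2 combined, yet below all Pre-BMP libraries, and the log2 change was -1.54 (SE 0.308, limma adjusted p = 0.00296). Mrpl38, a mitochondria-specific protein of the large subunit's central protuberance, had 13.7, 20.1 and 8.44 CPM in basophils, against 37.9, 36.8 and 32.2 CPM in Pre-BMPs, a log2 change of -1.42 (SE 0.259, limma adjusted p = 0.00164).

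Mrps24 and Mrps35, both of the small subunit, were the members that rose at this step. Mrps24, the counterpart of a bacterial protein at the entry of the message channel, had 103, 87.4 and 86.9 CPM in DN-GMPs, 83.4, 91.9 and 84.8 CPM in Pro-BMPs, 65.3, 66.2 and 47.1 CPM in Pre-BMPs and 89.6, 83.1 and 108 CPM in basophils. Mrps35, found only in mitochondria, had 65.9, 55.9 and 83.4 CPM, 75.9, 84.7 and 72.1 CPM, 46.3, 47.0 and 44.9 CPM and 67.2, 61.5 and 74.0 CPM in the same order. In both genes all Pre-BMP libraries lay below all libraries of the other 3 populations.

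For Mrps24 the log2 change was -0.56 (SE 0.158, limma adjusted p = 0.049) for Pre-BMPs against Pro-BMPs and 0.66 (SE 0.158, limma adjusted p = 0.0083) for basophils against Pre-BMPs. For Mrps35 the same changes were -0.75 (SE 0.156, limma adjusted p = 0.0117) and 0.55 (SE 0.156, limma adjusted p = 0.0197). Neither rise passed when the total of listed reads was taken as library size (limma adjusted p = 0.124 and 0.298), a scaling that moves the median of all genes to -0.42. Mrps35 also lost its rise with quantile normalization, without Pre-BMP replicate 3 and without basophil replicate 3, at limma adjusted p up to 0.066 in the fits that left out a library. No difference between basophils and DN-GMPs was called in either gene, with changes of 0.01 (SE 0.158) and -0.00206 (SE 0.156). Mrps24 shares 15.4% of its exon bases with Urgcp on the same strand, and Mrps35 shares none.

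Over the whole series, basophils against DN-GMPs, 63 members fell and none rose, beside 23.2% of all genes called lower and 23.2% called higher. At an unadjusted p under 0.05 no member was higher either, and the other limma settings also called none higher. The median log2 change was -0.94 over the members and -0.01 over all genes. Of these 63 calls, 57 held in every setting and in every fit that left out a library. The comparison shares its libraries with the steps above, and each change in it is the sum of a gene's 3 step changes.

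**Figure D3:**
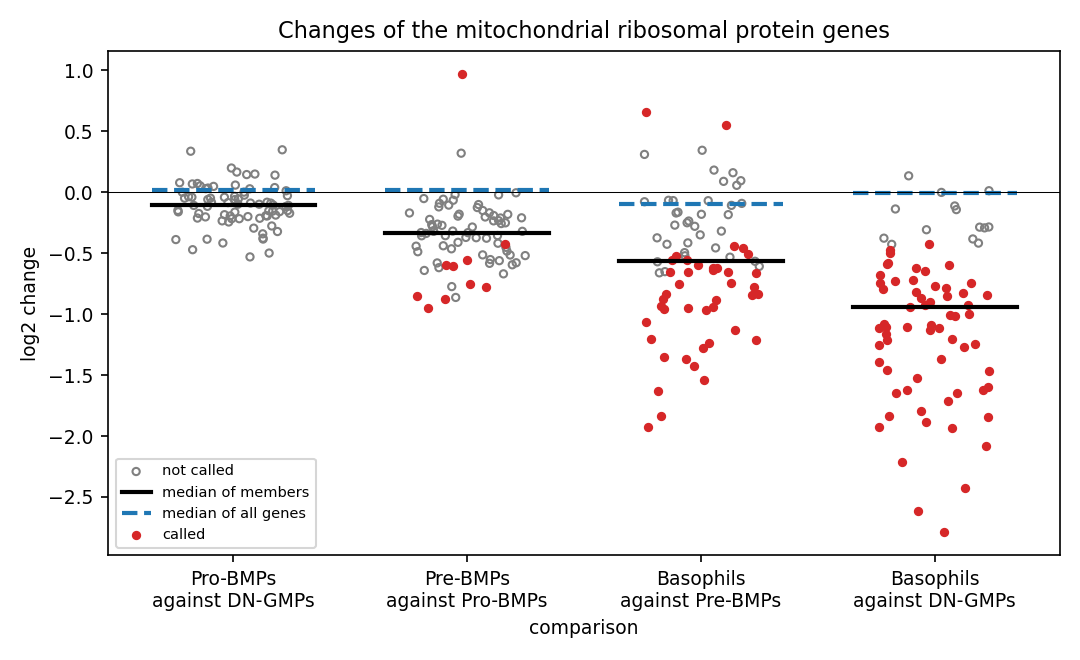
Log2 change of each of the 77 genes (points, called in red) in the 4 comparisons, with the median of the members (black line) and of all genes (blue dashed line). The members' median moves from -0.11 in the first comparison to -0.57 in the third, and it was -0.94 for basophils against DN-GMPs, while the median of all genes stays between -0.10 and 0.02.

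Mrps6 (ENSMUSG00000039680, GRCm38 chromosome 16, 92058270 to 92112227, plus strand) fell furthest. It had 4.51, 4.56 and 3.30 CPM in basophils, against 30.9, 22.7 and 32.2 CPM in DN-GMPs, and was 6.92-fold lower, a log2 change of -2.79 (SE 0.261, limma adjusted p = 6.42e-06). Its exons share 19.9% of their bases with Slc5a3 and a predicted gene on the same strand, and reads on shared bases may have been set aside as ambiguous. Mrpl19 (ENSMUSG00000030045, chromosome 6, 81957851 to 81965958, minus strand) had 9.44, 17.1 and 20.97 CPM in basophils, against 107, 83.1 and 87.2 CPM in DN-GMPs, and was 6.11-fold lower, a log2 change of -2.61 (SE 0.264, limma adjusted p = 1.15e-05). It shares 36.0% of its exon bases with Gcfc2 on the other strand, and the library kits do not mark strand.

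Mrps28 (ENSMUSG00000040269, chromosome 3, 8802146 to 8923918, minus strand) had 10.04, 17.0 and 17.1 CPM in basophils, against 69.9, 72.9 and 89.0 CPM in DN-GMPs, with a log2 change of -2.43 (SE 0.254, limma adjusted p = 1.53e-05) and no shared exon. Mrpl38 had 13.7, 20.1 and 8.44 CPM in basophils, against 56.7, 63.5 and 64.1 CPM in DN-GMPs, a change of -2.21 (SE 0.259, limma adjusted p = 3.66e-05). Mrpl16, whose bacterial counterpart helps to place tRNAs, had 18.2, 23.9 and 18.1 CPM in basophils, against 92.1, 73.5 and 88.4 CPM in DN-GMPs, a change of -2.08 (SE 0.228, limma adjusted p = 2.14e-05). In all 5 genes every basophil library lay below every DN-GMP library.

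Set beside the steps, 35 of the 63 members that fell were also called lower in the last step and in no earlier one, among them Mrps6, Mrps28, Mrpl38 and Mrpl16. For 21 no single step was called, among them Mrpl42, Mrpl41, Mrps34 and Mrps36. A further 4 were called lower at both later steps (Mrpl12, Mrpl19, Mrpl2 and Mrps15), and 3 only between Pre-BMPs and Pro-BMPs (Mrpl18, Mrpl20 and Mrpl44). Calls over all genes also grew along the steps, from 2.53% in either direction in the first to 4.69% and then 16.5% called lower. These patterns were not counted over all genes, so the counts cannot show that the timing is particular to the members. Below the 5 named first, the fall ran from -1.94 in Mrps25, -1.93 in Mrps22 and -1.89 in Mrps5 to -0.47 in Mrpl9 and -0.42 in Mrpl10 on the log2 scale. Mrps25 shares 69.8% of its exon bases with Nr2c2, a gene of the other strand.

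By role, 26 of the 29 large subunit members with a bacterial counterpart fell, with a median log2 change of -0.94, and 15 of the 21 found only in mitochondria, with a median of -0.80. In the small subunit 15 of 17 with a bacterial counterpart fell (median -1.13) and 6 of 9 found only in mitochondria (median -1.37). The difference between these groups was not tested, and 23.2% of all genes were called lower. The ratio of the summed CPM of the large subunit to that of the small was 2.28, 2.25 and 2.28 in the DN-GMP libraries and 2.22, 2.25 and 2.29 in the Pro-BMP libraries. It was 2.31, 2.31 and 2.40 in the Pre-BMP libraries and 2.47, 2.48 and 2.28 in the basophil libraries. Basophil replicate 3 lay within the range of the earlier populations, and basophil replicates 1 and 2 lay above all other libraries.

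The stalk protein Mrpl12 had 23.5, 26.4 and 17.8 CPM in basophils, against 83.3, 77.6 and 79.1 CPM in DN-GMPs, a log2 change of -1.84 (SE 0.172, limma adjusted p = 6.09e-06). Mrps12, whose bacterial counterpart sits at the decoding centre, had 41.6, 46.5 and 56.5 CPM in basophils, against 78.1, 66.5 and 72.0 CPM in DN-GMPs, a smaller log2 change of -0.59 (SE 0.153, limma adjusted p = 0.00817). Mrpl41, found only in mitochondria, had 40.4, 50.7 and 34.8 CPM in basophils, against 71.5, 60.3 and 74.0 CPM in DN-GMPs, a change of -0.72 (SE 0.191, limma adjusted p = 0.00907). In Mrpl12, Mrps12 and Mrpl41 the basophil and DN-GMP libraries did not overlap.

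The 3 Mrps18 paralogs, all related to 1 bacterial protein, fell. Mrps18b had 8.42, 11.9 and 12.3 CPM in basophils, against 31.1, 38.9 and 30.2 CPM in DN-GMPs, a log2 change of -1.63 (SE 0.237, limma adjusted p = 0.000183). Mrps18c had 17.9, 35.9 and 28.2 CPM, against 60.8, 43.8 and 55.8 CPM in DN-GMPs, and a change of -1.01 (SE 0.265, limma adjusted p = 0.00846), and Mrps18a of the large subunit had 47.7, 37.4 and 39.7 CPM, against 88.4, 65.2 and 84.3 CPM in DN-GMPs, and a change of -0.93 (SE 0.193, limma adjusted p = 0.00224). In none of the 3 did the basophil and DN-GMP libraries overlap. Mrps18b shares 30.5% of its exon bases with an antisense gene and Mrps18c 23.2% with a predicted gene on the same strand.

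Mrps30, a large subunit protein in spite of its symbol, had 20.4, 26.4 and 27.1 CPM in basophils, against 72.3, 55.5 and 34.5 CPM in DN-GMPs, where replicate 3 was the lowest by a wide margin. Its log2 change was -1.08 (SE 0.241, limma adjusted p = 0.00334). Mrps36 of the ketoglutarate dehydrogenase complex had 14.2, 15.2 and 12.2 CPM in basophils, against 30.8, 19.3 and 22.1 CPM in DN-GMPs, a change of -0.77 (SE 0.234, limma adjusted p = 0.0186). The call was lost without DN-GMP replicate 1 or basophil replicate 3 (limma adjusted p up to 0.0753) and in a fit to the 2 populations alone. The annotation holds 3 pseudogenes named after Mrps36, so reads that also matched a copy may have been set aside and not counted.

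Mrps34, the member with the lowest mean, had 8.95, 10.8 and 5.05 CPM in basophils, against 14.8, 22.8 and 24.8 CPM in DN-GMPs, a log2 change of -1.37 (SE 0.378, limma adjusted p = 0.0114). Since 77.8% of its exon bases are shared with Mapk8ip3 and Nme3, its level is uncertain. Mrpl47 had 7.17, 10.4 and 10.5 CPM in basophils, against 26.2, 24.8 and 16.9 CPM in DN-GMPs, a change of -1.27 (SE 0.291, limma adjusted p = 0.00393). In all, 32 of the 77 members share exon bases with another annotated gene, 9 of them over 20% of their bases.

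The 3 members with the highest mean log2 CPM over the 12 libraries fell by less than the members named first. A fall in basophils lowers that mean, and the members named first were picked for their falls. The comparison therefore cannot show whether level and fall are linked. Mrps14 had 67.0, 74.2 and 72.2 CPM in basophils, against 163, 131 and 138 CPM in DN-GMPs, a log2 change of -1.01 (SE 0.157, limma adjusted p = 0.000292). Mrpl42 had 51.6, 67.8 and 71.8 CPM in basophils, against 192, 142 and 166 CPM in DN-GMPs, a change of -1.39 (SE 0.221, limma adjusted p = 0.000356). Mrpl18, which in human cells has been linked to the handling of an imported rRNA, had 95.2, 91.5 and 96.9 CPM in basophils, against 152, 117 and 133 CPM in DN-GMPs, a change of -0.50 (SE 0.115, limma adjusted p = 0.00423). None of these 3 genes overlapped between basophils and DN-GMPs.

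For 11 members no comparison of neighbouring populations or of the ends was called: Mrpl14, Mrpl32, Mrpl33, Mrpl40, Mrpl43, Mrpl46, Mrpl49, Mrpl57, Mrps21, Mrps23 and Mrps33. Mrpl14, where the range between means was smallest, had 34.3, 45.8 and 45.8 CPM in basophils, against 51.1, 40.6 and 43.9 CPM in DN-GMPs, a log2 change of -0.11 (SE 0.199). Mrps21 had 60.7, 50.3 and 52.8 CPM in basophils, against 73.3, 43.6 and 67.1 CPM in DN-GMPs (-0.14, SE 0.209). Mrpl57 had 68.0, 65.6 and 71.4 CPM, against 97.0, 70.9 and 85.1 CPM in DN-GMPs (-0.29, SE 0.191), and Mrpl33 had 122, 99.1 and 91.5 CPM, against 129, 102 and 113 CPM in DN-GMPs (-0.14, SE 0.141). The basophil and DN-GMP libraries overlapped in all 4 genes. On the total of listed reads, Mrpl57 and Mrpl33 were called lower and Mrpl14 and Mrps21 were not. Missing the threshold does not show that these levels were equal, and the share of all genes without any such call was not counted.

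Many genes for other parts of the same machinery, which the symbol rule leaves out, were also lower in basophils. Of 6 further genes for proteins in the mitochondrial ribosome or bound to it, 4 fell in basophils against DN-GMPs and none rose. Beside them, 23.2% of all genes were called lower and 23.2% higher. The log2 change was -1.74 (SE 0.216, limma adjusted p = 5.61e-05) in Ptcd3 and -1.47 (SE 0.245, limma adjusted p = 0.000481) in Gadd45gip1, while Dap3 and Chchd1 changed by -1.47 and -1.12. Dap3, a GTP-binding protein of the small subunit first described in cell death, had 36.2, 25.4 and 44.3 CPM in basophils, against 98.9, 88.7 and 98.2 CPM in DN-GMPs. The 2 not called were Oxa1l, a membrane protein that binds this ribosome, and Aurkaip1, with changes of -0.45 and -0.26.

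Of 27 assembly factors of the mitochondrial ribosome 11 fell and 1 rose (median -0.44), beside 23.2% of all genes called lower and 23.2% higher. C1qbp, a matrix protein needed for mitochondrial translation, had 14.6, 37.8 and 35.8 CPM in basophils, against 329, 269.9 and 293 CPM in DN-GMPs, a log2 change of -3.45 (SE 0.294, limma adjusted p = 3.01e-06). Rcc1l changed by -2.71 (SE 0.414, limma adjusted p = 0.000258). Rbfa, which matures the small subunit's rRNA, went the other way, with 371, 320.1 and 296 CPM in basophils, against 121, 109.7 and 118 CPM in DN-GMPs, a change of 1.497 (SE 0.131, limma adjusted p = 3.75e-06). Every basophil library lay above every DN-GMP library for Rbfa and below for C1qbp.

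Of 12 translation factors 7 fell and none rose (median -1.01), beside 23.2% of all genes called lower and 23.2% higher. Tufm, the elongation factor that brings tRNAs to the ribosome, had 35.0, 66.5 and 35.5 CPM in basophils, against 145, 137 and 118 CPM in DN-GMPs, a log2 change of -1.61 (SE 0.224, limma adjusted p = 0.000133), and Mrrf, which recycles ribosomes, changed by -1.48 (SE 0.302, limma adjusted p = 0.00192). Of 20 genes that charge mitochondrial tRNAs 13 fell and none rose (median -1.07), led by Yars2 at -2.07 (SE 0.357, limma adjusted p = 0.000636) and Mars2 at -1.95 (SE 0.568, limma adjusted p = 0.0148). The Mars2 call was lost without DN-GMP replicate 2 or basophil replicate 3 (limma adjusted p up to 0.055).

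Of 13 genes for mitochondrial transcription, RNA and DNA 6 fell and 2 rose (median -0.08), beside 23.2% of all genes called lower and 23.2% higher. Slirp and Lrpprc, partners that steady mitochondrial messages, changed by -2.11 (SE 0.305, limma adjusted p = 0.000176) and -1.92 (SE 0.485, limma adjusted p = 0.0071). The genes that rose were Polg and Polg2, the subunits of the mitochondrial DNA polymerase, by 0.98 (SE 0.272, limma adjusted p = 0.0116) and 1.38 (SE 0.5003, limma adjusted p = 0.0416). Polg2 held its call in 4 of the 12 fits that left out a library and lost it on the total of listed reads (adjusted p = 0.0859). Messages encoded in the mitochondrial genome are not analysed here.

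Among 9 regulators of nuclear genes for mitochondrial proteins 3 fell and 2 rose (median 0.10). Over all genes, 23.2% were called lower and 23.2% higher. Myc, a driver of growth and ribosome production, had 105, 89.8 and 79.7 CPM in basophils, against 403, 414 and 339.6 CPM in DN-GMPs, a log2 change of -2.08 (SE 0.132, limma adjusted p = 2.9e-07). The coactivators Ppargc1b and Pprc1 changed by -2.30 (SE 0.606, limma adjusted p = 0.0089) and -1.72 (SE 0.311, limma adjusted p = 0.000877). Nrf1 and Esrra rose, by 0.77 (SE 0.197, limma adjusted p = 0.00788) and 0.78 (SE 0.245, limma adjusted p = 0.0217), and Esrra was not called on the total of listed reads (adjusted p = 0.0994) nor without DN-GMP replicate 3, basophil replicate 2 or basophil replicate 3 (up to 0.0685). The median Basophil against DN-GMP change was -0.74 over the 13 members with an NRF1 motif in their window and -1.01 over the 55 without. This median was -0.73 over 25 with and -1.10 over 43 without an ETS motif. For the YY1 motif it was -1.01 over 12 with and -0.85 over 56 without. The differences between members with and without a motif were not tested.

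Nuclear genes for oxidative phosphorylation, whose proteins meet the products of this ribosome, fell in 59 of 77 and rose in 1 (median -0.68). Beside them, 23.2% of all genes were called lower in basophils against DN-GMPs and 23.2% higher. Atp5g1 and Ndufa12 changed by -1.83 (SE 0.191, limma adjusted p = 1.51e-05) and -1.55 (SE 0.158, limma adjusted p = 1.27e-05). Ndufa1 was the one that rose, by 0.42 (SE 0.138, limma adjusted p = 0.028), and its call was lost on the total of listed reads (adjusted p = 0.384), with quantile normalization and without DN-GMP replicate 2 or 3 or basophil replicate 2 or 3 (up to 0.0931). Of 81 cytosolic ribosomal protein genes 78 fell (median -1.03), led by Rpl12 at -1.80 (SE 0.144, limma adjusted p = 1.8e-06) and Rpl36a at -1.68 (SE 0.169, limma adjusted p = 1.13e-05). Over the last step alone the medians were -0.65 for cytosolic ribosomal proteins, -0.57 for the members and -0.23 for oxidative phosphorylation. In that step 61 of 81, 40 of 77 and 27 of 77 genes fell, beside 16.5% of all genes called lower and 13.9% called higher.

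**Figure D4:**
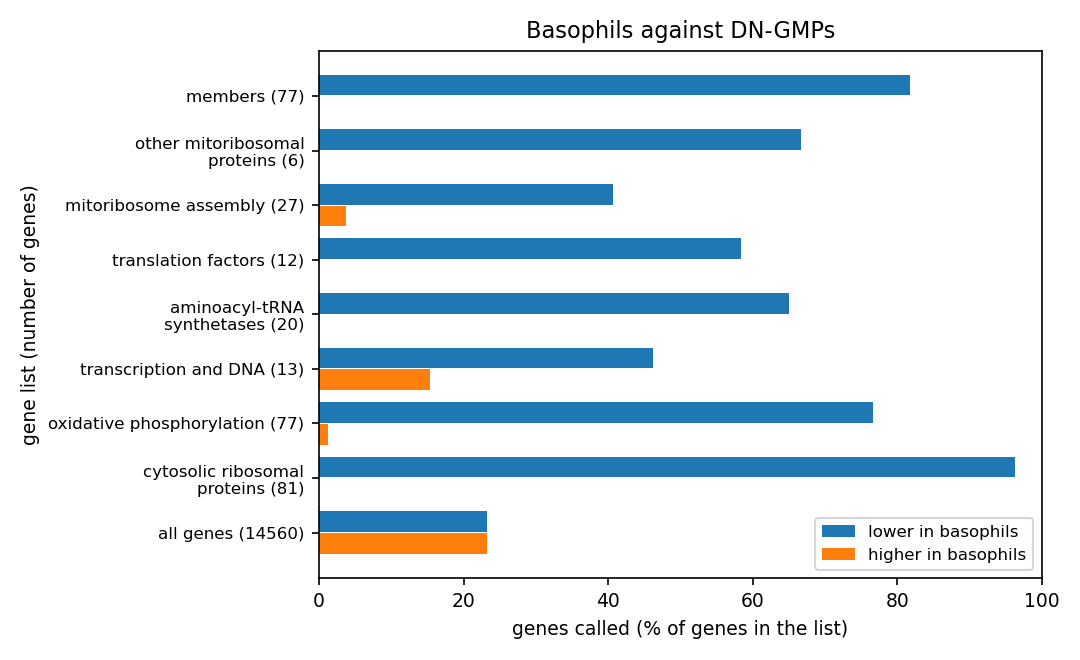
Share of the genes of each list that were called lower (blue) or higher (orange) in basophils against DN-GMPs, with the number of genes tested in brackets and all genes at the bottom. The members (63 of 77 lower) lie between oxidative phosphorylation (59 of 77) and cytosolic ribosomal proteins (78 of 81), and all genes stand at 23.2% in each direction.

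Several members start close to a gene on the other strand. A protein-coding gene on the other strand started between 1000 bases upstream and 500 downstream for 26 of the 77 members (33.8%), and for 15.3% of 11912 listed protein-coding genes. Of the 24 such partners that are listed and are no members, 4 fell and 5 rose in basophils against DN-GMPs. Their median log2 change was -0.22. Over all genes, 23.2% were called lower and 23.2% higher, with a median of -0.01. Named after their values were seen, Sars2, Cyb5rl, Ndufs6 and Ptcd2 fell, and Pnpla7, Klc4, Eme2, Ppp1r10 and Mitd1 rose. The members beside the 5 that rose, Mrpl41, Mrpl2, Mrps34, Mrps18b and Mrpl30 in the same order, all fell, as did 63 of the 77 members. Mrps18b changed by -1.63 beside Ppp1r10 at 1.10.

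Mrps11, of the small subunit with a bacterial counterpart, and Mrpl46, found only in the large subunit of mitochondria, start on opposite strands of chromosome 7, each inside the other gene, and the Mrps11 window printed earlier lies within Mrpl46. Mrps11 had 19.8, 15.1 and 19.6 CPM in basophils, against 45.7, 37.8 and 32.8 CPM in DN-GMPs, a log2 change of -1.09 (SE 0.183, limma adjusted p = 0.000506). Mrpl46 had 40.3, 41.4 and 38.8 CPM in basophils, against 61.6, 47.9 and 39.6 CPM in DN-GMPs, a change of -0.29 (SE 0.180, limma adjusted p = 0.215). The 2 genes share 173 exon bases, so part of their reads may have been set aside as ambiguous, and the pair was picked after its values were seen.

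Some properties of the libraries moved with the members. The 100 most abundant genes took 19.4% to 19.9% of listed reads in basophils, against 13.2% to 16.3% in the other populations, reads outside annotated features were 11.2% to 12.6% in basophils, against 6.65% to 7.77% in DN-GMPs, and the scaled library size was 1.10 to 1.13 times the listed reads in basophils, against 1.32 to 1.41 times in the others. The part of these in the falls was not tested. On the total of listed reads, without the deposited scaling, the median of all genes was -0.27 for basophils against DN-GMPs and that of the members was -1.20, with 70 members called lower and none higher.

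The members are short genes, with a median of 2533 exon bases, against 4786 for the 6170 genes that lie in the members' range of mean levels. When these genes were divided into 5 equal groups by exon length, the median basophil against DN-GMP change ran from -0.86 (42 members in group 1, the shortest) to -1.08 (9 members in group 4) over the members, and from -0.19 in the shortest to 0.23 in the longest over the other genes. The members' median was the lower one within each of the 5 groups. Libraries also differed within a population: the members' median deviation from the population mean was 0.152 on the log2 scale in DN-GMP replicate 1, -0.159 in DN-GMP replicate 2 and -0.166 in Pre-BMP replicate 3, and short genes that are no members deviated the same way (0.0602, -0.0778 and -0.0810). Without DN-GMP replicate 2, 62 members were called lower in basophils than in DN-GMPs, and without Pre-BMP replicate 3, 43 were called between basophils and Pre-BMPs (42 with it) and 3 between Pre-BMPs and Pro-BMPs (10 with it).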

How the data were processed

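The authors deposited log2 values per gene and library. Trimmomatic, STAR, HTSeq and deepTools were used, per the submitters' processing notes; their versions, the genome build and the annotation are not stated there. Libraries came from doubly sorted cells with the SmartSeq v4 and Nextera XT kits, per the labels' protocols, which do not mark strand. Each deposited log2 value is the logarithm of reads plus 0.5 per 1000000 of a scaled library size: whole read counts were recovered for 100% of values (tolerance 0.001). CPM are those reads over the deposited scaled sizes, 40263971 to 58553590 per library. A count of 0 allows up to 3 reads, 0.0512 to 0.0745 CPM, which covers counting error only.

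The log2 values were fitted with limma 3.58.1 in R 4.3.3, with 1 mean per population over all 12 libraries and a mean-variance trend, after tests on simulated data. P-values are two-sided and adjusted by the Benjamini-Hochberg method over all 14560 genes, and a call is an adjusted p under 0.05. Genes with at least 10 reads in at least 3 libraries entered, which left out none, and 3 entries that name no gene were left out. Among these entries were ambiguous reads (3.63% to 4.14% of reads) and reads aligned to more than 1 place (8.51% to 12.1%). The members and lists were chosen with earlier results of these data known. Named members are those with the largest and smallest changes, the highest and lowest levels, the called changes against the common direction and the subunit exceptions; others are said to be picked after their values were seen. Positions and exon lengths come from GENCODE M21 (GRCm38) and promoters from RefSeq (GRCm38.p6). Alternatives were voom weights, total reads as library size, quantile normalization, 5 added reads, a mean above 10 CPM, no filter, the populations of a comparison alone, a replicate term and each library left out.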

Additional observations from a re-analysis of the deposited data

How the results depend on the processing

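No change of a member reversed its sign among called values in any setting. Of 77 members, 60 differed among the 4 populations (55 to 62 without any 1 library), and 63 were called between basophils and DN-GMPs (60 to 63). The latter count was 59 in a fit to the 2 populations alone and 70 with the total of listed reads. Between Pre-BMPs and Pro-BMPs the 10 calls became 6 with the total of listed reads as library size, 5 with a replicate block and 2 to 9 without any 1 library. They became 14 with voom weights and 11 with quantile normalization or a mean above 10 CPM. Between basophils and Pre-BMPs the 42 calls became 26 to 43 without any 1 library, the lowest without Pre-BMP replicate 2. They became 58 with the total of listed reads, all lower, 47 with quantile normalization and 34 in a fit to the 2 populations alone. With the total of listed reads the members' median was -0.89 for basophils against Pre-BMPs and -1.20 against DN-GMPs, where all genes had medians of -0.42 and -0.27. The calls over all genes then split into 1379 higher and 3813 lower, in place of 2019 and 2408, and into 2702 higher and 4276 lower, in place of 3373 and 3376. Over all populations, deviations of libraries with the same number had a median correlation of 0.00318, with 2 of 18 pairs above 0.1. Both of these pairs joined Pro-BMPs and Pre-BMPs, where replicates 1, 2 and 3 gave 0.0486, 0.108 and 0.127. Differently numbered libraries of these populations gave -0.108 to 0.00153, so a shared source of same-numbered libraries was not settled there. The labels tie no number to a mouse, and the main fit did not pair libraries. The planned count-model tests on recovered reads were not run. In all settings, no member was called between Pro-BMPs and DN-GMPs. With 3 libraries per population, calls near the threshold depend on single libraries.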
